A study of Mus musculus with 21 samples.

Results

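GATA4 occupancy in the ventricles of embryonic mouse hearts was compared between the Tie2-Cre lineage and the Tnnt2-Cre lineage, using 3 libraries of each, 6 of the 21 samples of the study. The members were all GATA4 peaks of these 6 libraries, merged into 1 region wherever they shared at least 1 bp, with each region marked as present or absent in each library. This gave 49798 merged regions. Every library came from ventricles of E12.5 hearts, where E stands for the embryonic day, 15 to 20 of them pooled per pull-down, crosslinked with formaldehyde. In all 6 libraries a tagged GATA4, named GATAfb by the submitters, was pulled down on streptavidin, and the tag was biotinylated through the activity of the Cre named for that lineage. Tie2-Cre, driven by regulatory sequence of the Tie2 receptor gene Tek, marks endothelial and endocardial cells, the cushion cells that descend from them, and blood cells. Tnnt2-Cre, driven by the troponin T gene, marks cardiomyocytes. No agent was given to these embryos according to the labels, which do not say whether the replicates came from separate litters, so the p-values below measure the spread between these samples.

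GATA4 is a zinc finger transcription factor that binds DNA at the letters GATA flanked by A or T, and it is required for heart formation. In cardiomyocytes it acts with factors such as Nkx2-5, Tbx5 and the Mef2 family at genes of the contractile apparatus and the natriuretic peptides. In the endocardium, the endothelium that lines the heart, it takes part in the formation of the cushions from which the valves are made. A bioChIP peak marks a place where tagged GATA4 was recovered with DNA, and presence in a peak list also depends on how deep that library was.

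The letters of some promoters at which the 2 lineages differed, or did not, are given first. The sequences below come from the RefSeq promoter table of GRCm38.p6, whose coordinates are those of mm10, and lie on the plus strand. They belong to the genes of the lists described further on, up to 3 per class by rank, whose transcription start lay in a reproducible region and whose promoter window held a GATA motif (the letters GATA preceded by A or T and followed by A or G, on either strand). A motif was thus a condition, and these promoters do not show how often one lies at an occupied start. Icam2, Vwf, Plvap, Lum and Pecam1, with starts occupied only in Tie2-Cre libraries, had no motif in the window. The same held for others, among them Tnni3, Trdn and Myl2 in Tnnt2-Cre and Tgfbr3 and Hes1 in both lineages. Capitals mark the motif, shown as read on the printed strand. Each stretch ends at or before the transcription start, except at Tek and Emcn, where the motif lay after the start and 30 bases around it are given. Tek (chr4:94739309-94739338), the receptor of the angiopoietins, and Emcn (chr3:137341076-137341105), a sialoglycoprotein of endothelium, were occupied at the start only in Tie2-Cre libraries.
Tek: ccggagcaggagcagaAGATAAgccttgga
Emcn: tcctctagttctTTATCAgaatccccaaaa
Nppa (chr4:148000550-148000669) and Nppb (chr4:147985755-147985874), the genes of the natriuretic peptides, and Mybpc3 (chr2:91117963-91118082), myosin-binding protein C of the sarcomere, were occupied at the start only in Tnnt2-Cre libraries.
Nppa: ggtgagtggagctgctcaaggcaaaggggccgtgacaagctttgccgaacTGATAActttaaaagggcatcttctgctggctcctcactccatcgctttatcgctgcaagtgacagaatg
Nppb: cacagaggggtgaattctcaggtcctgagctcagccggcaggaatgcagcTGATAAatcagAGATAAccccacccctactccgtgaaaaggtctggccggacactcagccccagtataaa
Mybpc3: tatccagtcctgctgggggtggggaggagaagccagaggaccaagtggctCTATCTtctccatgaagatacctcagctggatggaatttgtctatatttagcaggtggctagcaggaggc
Tnnt2 (chr1:135836118-135836237), cardiac troponin T, Pkm (chr9:59656494-59656575), a pyruvate kinase of glycolysis, and Kcnj2 (chr11:111066084-111066163), an inward rectifier potassium channel, were occupied in both lineages.
Tnnt2: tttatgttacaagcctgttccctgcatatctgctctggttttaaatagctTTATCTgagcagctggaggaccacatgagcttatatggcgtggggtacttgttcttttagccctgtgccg
Pkm: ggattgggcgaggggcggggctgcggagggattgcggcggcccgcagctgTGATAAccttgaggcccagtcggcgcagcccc
Kcnj2: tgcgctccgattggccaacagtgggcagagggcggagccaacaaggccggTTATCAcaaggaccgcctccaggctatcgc

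The distance of the peak summits from these letters varied between genes and libraries. At Nppb the summit was 4, 32 and 26 bp from the nearer motif in Tnnt2-Cre replicates 1, 2 and 3. At Mybpc3 the summit was 5, 44 and 18 bp from the nearer of 2 motifs, of which only 1 lies in the printed stretch. At Tek the distances in the Tie2-Cre replicates were 57, 17 and 29 bp. At the shared Tnnt2 promoter they were 22 and 42 bp in Tie2-Cre replicates 1 and 3 and 33, 40 and 19 bp in the Tnnt2-Cre replicates. At Pkm the distances were 50 and 109 bp in Tie2-Cre replicates 1 and 3 and 6, 60 and 5 bp in Tnnt2-Cre, and at Kcnj2 they were 62 and 25 bp and 83, 5 and 78 bp. At Emcn they were 49 and 30 bp in Tie2-Cre replicates 1 and 3. Nppa had the widest distances, with summits 122 and 160 bp from its motif in Tnnt2-Cre replicates 1 and 3.

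The 6 lists differed widely in length, which bears on every count below. Tie2-Cre replicates 1, 2 and 3 held 17682, 2734 and 25936 peaks, and the Tnnt2-Cre replicates held 22814, 3603 and 30447. The median fold over background that the peak caller gave, the authors' own value and used here only to describe and rank peaks within a list, lay between 5.11 and 5.88 in the 6 libraries, with the short second libraries at the upper end. Nearly all regions of the second libraries recurred in their deeper partners. Of the regions of Tie2-Cre replicate 2, 95.8% were also in replicate 3, and of those of Tnnt2-Cre replicate 2, 98.4% were in replicate 3. Across lineages the shares were smaller at like depth. Tie2-Cre replicate 1 shared 80.7% of its regions with Tie2-Cre replicate 3 and 49.7% with Tnnt2-Cre replicate 3, and Tnnt2-Cre replicate 1 shared 82.2% with Tnnt2-Cre replicate 3 and 43.0% with Tie2-Cre replicate 3.

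Presence was then used to class the regions. A region that 2 or 3 Tie2-Cre libraries held and every Tnnt2-Cre library lacked was called Tie2-Cre-selective. The mirror rule gave the Tnnt2-Cre-selective regions, and a region that 2 or 3 libraries of each lineage held was called shared. These classes held 12.2%, 18.2% and 13.1% of all regions, 6095, 9086 and 6535 in that order, and the remaining 28082 regions met none of the rules. Of these, 9550 were in 1 Tie2-Cre library only and 11618 in 1 Tnnt2-Cre library only. Presence in all 3 libraries of the lineage was found for 798 regions of the Tie2-Cre class and 1156 of the Tnnt2-Cre class, and presence in all 6 libraries for 689 shared ones. Since most selective regions rest on the 2 deep libraries of a lineage, the counts fell when either was left out. Without Tie2-Cre replicate 1 or 3 the Tie2-Cre-selective regions numbered 863 and 812 and the shared ones 1514 and 1482. Without Tnnt2-Cre replicate 1 or 3 the Tnnt2-Cre-selective regions numbered 1209 and 1167 and the shared ones 1883 and 1863. With all lists cut to the 2734 peaks of smallest p from the peak caller, the classes held 1375, 1444 and 751 regions. The class is thus a rule on these lists, and a region missing from a list may still be occupied.

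Shared regions ranked higher than selective ones within each list. Part of this may follow from the rule, as a shared region must be found in lists of both lineages and takes its best peak in each list. That part was not tested. Rank is given as the position of a peak by fold as a percent of its list, so that small values are strong peaks. In Tie2-Cre replicates 1, 2 and 3 the median rank was 36.8%, 45.0% and 26.7% for shared regions and 47.9%, 54.8% and 38.6% for Tie2-Cre-selective ones. In the Tnnt2-Cre replicates it was 30.8%, 43.2% and 23.5% for shared and 49.2%, 55.02% and 40.2% for Tnnt2-Cre-selective regions. Shared regions were also wider, with a median of 517 bp against 358 bp and 360 bp, which is in part fixed by merging more peaks. They lay nearer to genes. A transcription start lay within 1 kb of 26.7% of the shared regions, against 5.14% and 7.78% of those selective for Tie2-Cre and Tnnt2-Cre, and the median distance to the nearest start was 19379, 44192 and 37068 bp. Lineage-selective occupancy was thus mostly distal, with 42.9% of the Tie2-Cre and 50.9% of the Tnnt2-Cre class in introns and 53.9% and 44.6% between genes.

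GATA4 peaks of the Tie2-Cre lineage lay more often in chromatin open in endothelial cells than did those of the Tnnt2-Cre lineage. The open set was the ATAC peaks present in both libraries of 40000 Tie2-Cre-labelled cells each, so it is independent of the GATA4 lists, but it comes from 1 of the 2 lineages, and ATAC of cardiomyocytes was not used. The share of peaks in open chromatin was 88.7%, 93.0% and 86.1% in Tie2-Cre replicates 1, 2 and 3 and 65.4%, 71.4% and 64.7% in the Tnnt2-Cre replicates. The groups did not overlap, and the short second library was the highest in each. The means were 89.3% ± 3.48 and 67.2% ± 3.72 (SD, n = 3 each), a difference of 22.1 percentage points with an exact two-sided permutation p of 0.1, the smallest that 3 libraries against 3 can give. The p-values of the 3 shares tested are unadjusted, and this design cannot reach 0.05.

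The gap in open chromatin widened with distance from genes. Within 1 kb of a start nearly all peaks were in open chromatin, 99.3%, 100% and 99.5% in Tie2-Cre and 97.4%, 96.0% and 97.5% in Tnnt2-Cre. From 10 to 50 kb the shares were 89.4%, 93.5% and 85.6% against 60.4%, 71.3% and 58.6%. Beyond 50 kb they were 82.6%, 90.5% and 78.7% against 51.5%, 63.3% and 49.4%. The same held by class. Of selective regions within 1 kb of a start, 99.4% in the Tie2-Cre class and 89.7% in the Tnnt2-Cre class were open in both ATAC libraries, and of those farther away 87.7% and 37.3%. Among the regions present in all 3 libraries of their lineage, 94.5% and 37.8% were open, so the difference between the classes was as large in the most reproducible regions. In the strongest 10% of each list 95.1%, 96.7% and 94.0% of Tie2-Cre peaks and 72.9%, 83.6% and 71.5% of Tnnt2-Cre peaks were open, and in the weakest 10% 90.5%, 90.9% and 89.4% and 69.0%, 68.7% and 72.3%.

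GATA4 peaks of the Tie2-Cre lineage also lay more often near genes with more RNA in endothelial cells. The genes were called from 2 RNA libraries of 60000 sorted Tie2-Cre cells (EC) and 3 of cardiomyocytes (CM), with edgeR's quasi-likelihood test and an adjusted p under 0.05. Of the genes tested, 37.5% were EC-higher (5575) and 40.2% CM-higher (5972). The peak shares below are among called genes only, so they are to be read against these 2 counts and not against 37.5%. Among called genes, the EC-higher ones were the smaller group. Each peak was given to the nearest start within 50 kb, and peaks at genes not called were set aside. EC-higher genes then took 55.8%, 54.9% and 55.5% of the peaks of Tie2-Cre replicates 1, 2 and 3 and 44.2%, 38.6% and 44.7% of those of the Tnnt2-Cre replicates. The 3 Tie2-Cre libraries stood within 1 percentage point of each other and all lay above the 3 Tnnt2-Cre libraries. The means were 55.4% ± 0.442 and 42.5% ± 3.39 (SD, n = 3 each), a difference of 12.9 percentage points (exact two-sided permutation p = 0.1, the smallest possible). With each list cut to the 2734 peaks of smallest p from the peak caller the difference was 19.6 points, and with genes counted only at a 2-fold difference or more it was 19.1 points. It stayed between 10.95 and 14.03 points with any 1 library left out. In the strongest 10% of each list by fold the shares were 54.1%, 57.1% and 55.2% in Tie2-Cre and 39.3%, 38.5% and 43.5% in Tnnt2-Cre. In the weakest 10% they were 61.8%, 61.4% and 62.1% against 44.1%, 31.9% and 44.3%. By fold, the gap was thus not wider among the strongest peaks.

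The lineage gap was smallest for peaks at promoters and larger a short way off. Within 1 kb of a start, 50.7%, 50% and 50.4% of Tie2-Cre peaks were at EC-higher genes, against 45.9%, 38.2% and 45.7% of Tnnt2-Cre peaks. From 1 to 10 kb the shares were 61.6%, 60.9% and 62.9% against 43.8%, 37.0% and 44.1%, and from 10 to 50 kb 57.0%, 54.7% and 56.3% against 43.0%, 39.4% and 44.3%. The groups did not overlap in any of these 3 bands, which were not tested. The share of peaks that lay within 1 kb of a start did not separate the lineages, at 17.7%, 11.7% and 19.5% in Tie2-Cre and 18.8%, 11.05% and 20.4% in Tnnt2-Cre. Its difference of -0.453 percentage points (exact two-sided permutation p = 0.8) was smaller than the spread within each lineage, where the short library was the lowest, and it changed sign with other settings, to 0.463 at equal list length and 1.86 without Tie2-Cre replicate 2.

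**Figure D1:**
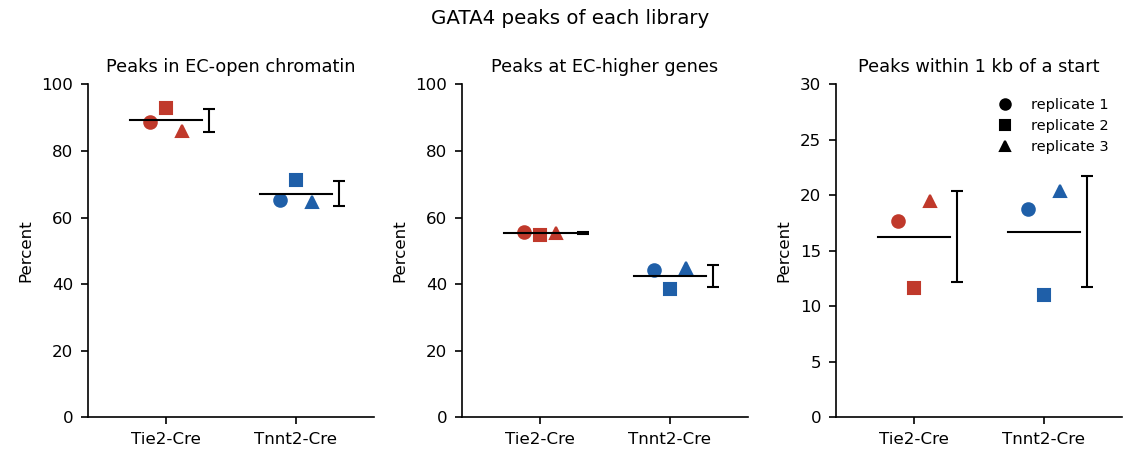
Percent of the GATA4 peaks of each library that lay in chromatin open in both EC ATAC libraries (left), at EC-higher genes among peaks at called genes (middle) and within 1 kb of a transcription start (right, with its own axis). Points are libraries, horizontal lines are means and bars at the side are SDs (n = 3). The Tie2-Cre libraries lie above all Tnnt2-Cre libraries in the left and middle panels and among them in the right panel.

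The number of selective regions at a gene went with the size of its RNA difference. Genes with a Tie2-Cre-selective region as the nearest start within 50 kb made up 11.3% of the 24140 genes placed on the genome, those with a Tnnt2-Cre-selective region 16.9% and those with a shared region 16.2%. Among genes with Tie2-Cre-selective but no Tnnt2-Cre-selective region, 53.9% of the 1194 tested genes with 1 region were EC-higher, 67.5% of the 191 with 2 regions and 74.3% of the 35 with 3 or more. The median log2 fold change, EC over CM, was 0.49, 1.23 and 1.45. Among genes with Tnnt2-Cre-selective but no Tie2-Cre-selective region, 47.9% of 2006, 60.2% of 389 and 68.5% of 124 were CM-higher, and the median log2 fold change was -0.26, -0.70 and -1.41. Over all 14833 placed and tested genes 37.6% were EC-higher and 40.2% CM-higher, with a median of -0.05. The 619 tested genes with regions of both selective classes were 43.8% EC-higher and 37.0% CM-higher, with a median of 0.08. Genes with shared regions only stood close to all genes, at 39.7% EC-higher, 38.1% CM-higher and a median of 0.01. These are descriptions over genes, which are not replicates. A gene with a long span or few neighbours can collect more regions, and the part of this in the trend was not tested.

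**Figure D2:**
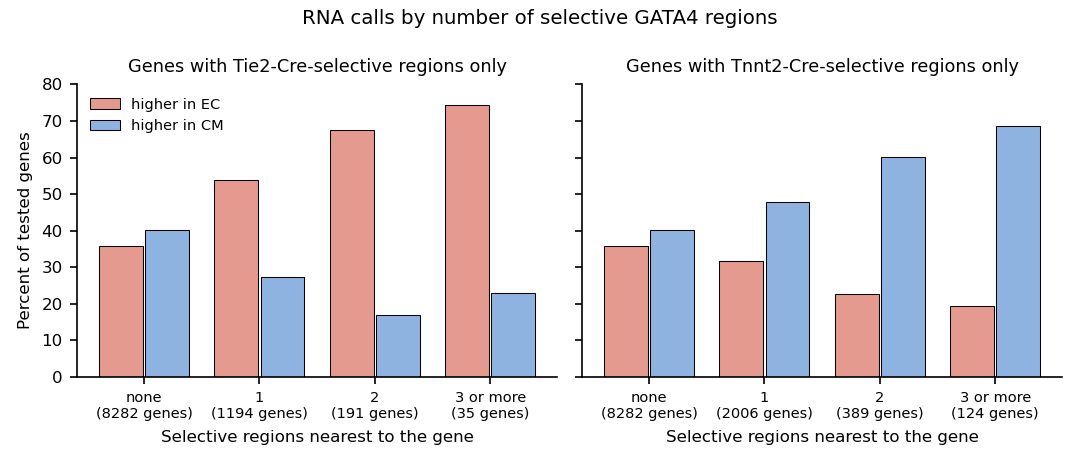
Percent of tested genes called higher in EC or in CM (edgeR, adjusted p under 0.05) by the number of Tie2-Cre-selective (left) or Tnnt2-Cre-selective (right) regions nearest to the gene within 50 kb, for genes with regions of only that selective class. The EC-higher share reached 74.3% at 3 or more Tie2-Cre-selective regions and the CM-higher share 68.5% at 3 or more Tnnt2-Cre-selective regions.

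Selective promoter occupancy showed the same direction. Of 202 tested genes with a Tie2-Cre-selective region within 1 kb of the start and no Tnnt2-Cre-selective region, 59.9% were EC-higher and 23.3% CM-higher. Of 520 with a Tnnt2-Cre-selective region there and no Tie2-Cre-selective one, 52.7% were CM-higher and 29.4% EC-higher. Of 1637 genes with a shared region within 1 kb, 37.8% were EC-higher and 40.6% CM-higher, close to all genes.

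The gene lists were chosen with earlier results of these data known, so their counts describe the regions and are not independent evidence. Over all genes, 38.5% of the selective regions within 50 kb of a start were Tie2-Cre-selective (3281 of that class against 5240), and lists are read against that share. Beside the region counts, the peaks of each library at each list are given per 10000 peaks of that library, a measure that does not rest on the classes. The call of a region as selective at a list depends on the deep libraries. Without Tie2-Cre replicate 1 or 3 the endothelial surface list had 2 Tie2-Cre-selective regions. The sarcomere list had 7 Tnnt2-Cre-selective ones when Tnnt2-Cre replicate 1 or 3 was left out.

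Genes of the endothelial surface and junctions carried mostly Tie2-Cre-selective regions. Of the 22 genes, 16 had such a region, 28 regions in all, while 3 had a Tnnt2-Cre-selective region, 5 in all. Of the selective regions 84.8% were thus Tie2-Cre-selective. Peaks at these genes numbered 24.3, 21.9 and 22.4 per 10000 in Tie2-Cre replicates 1, 2 and 3 and 7.01, 8.33 and 6.24 in the Tnnt2-Cre replicates, and the groups did not overlap. All 22 genes were EC-higher, with a median log2 fold change of 2.23 against -0.05 for all genes.

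Vwf, which encodes the clotting factor von Willebrand factor, had 4 Tie2-Cre-selective regions and no other, the most of any gene of its list. They lay upstream (chr6:125534906-125535265), over the start (chr6:125552751-125553046) and in 2 introns, with folds between 4.15 and 7.33 in Tie2-Cre replicates 1 and 3 and no peak in replicate 2. Vwf RNA stood at 200 ± 8.97 CPM (counts scaled to library size, SD, n = 2) for EC, against 20.6 ± 1.49 for CM (n = 3). The region over the start of Tek (chr4:94738801-94739619) was present in all 3 Tie2-Cre libraries, with folds of 8.41, 7.70 and 7.26, and in no Tnnt2-Cre library. Another Tek region lay 13145 bp upstream, and a region in an intron (chr4:94745480-94746850), was shared, with folds of 4.81, 3.53 and 4.66 in Tie2-Cre and 4.497 and 5.81 in Tnnt2-Cre replicates 1 and 3. The Tie2-Cre transgene carries Tek regulatory sequence of its own, and extra copies of it cannot be told apart from the Tek locus in these lists.

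Some endothelial surface genes carried regions of both kinds. Pecam1, an adhesion molecule of endothelial junctions, had a Tie2-Cre-selective region over its start (chr11:106715153-106715566, folds 5.29 and 4.05 in Tie2-Cre replicates 1 and 3) and another upstream. It also had 2 Tnnt2-Cre-selective regions, of which the intronic one (chr11:106677807-106678175) was in all 3 Tnnt2-Cre libraries with folds of 5.96, 4.99 and 7.22. S1pr1, a receptor for sphingosine 1-phosphate, had 3 Tie2-Cre-selective, 2 Tnnt2-Cre-selective and 1 shared region. Both genes were EC-higher, Pecam1 by 2.65 and S1pr1 by 1.65 on the log2 scale. The 5 Tnnt2-Cre-selective regions at this list were all open in both EC ATAC libraries.

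Endothelial transcription factor genes showed a weaker form of this pattern. Of 20 genes, 7 had Tie2-Cre-selective regions, 12 in all, and 8 had Tnnt2-Cre-selective ones, 8 in all. Peaks per 10000 numbered 17.0, 25.6 and 20.0 in Tie2-Cre and 12.7, 0 and 10.2 in Tnnt2-Cre, where the short replicate 2 had none. The difference of means, 13.2 per 10000, was 7.06 without the second libraries. Fli1, an ETS factor of blood vessels, had 3 Tie2-Cre-selective regions and no other, one of them 74 bp from its start (chr9:32541526-32541928). Its neighbour Ets1 had 2, of which chr9:32672464-32672906 was in all 3 Tie2-Cre libraries with folds of 6.72, 4.88 and 5.73. Hhex, a homeobox factor of early endothelium, had 2, with the one in its intron (chr19:37435467-37435982) at folds of 7.97, 5.41 and 6.90. Sox7, a SoxF factor, had 2 Tie2-Cre-selective regions, 1 Tnnt2-Cre-selective and 1 shared. RNA of these genes was EC-higher by 2.49 (Ets1) to 4.47 (Hhex) on the log2 scale.

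Endocardial genes had similar numbers of both selective classes. Of 16 genes, 8 had Tie2-Cre-selective regions (10 in all) and 7 Tnnt2-Cre-selective ones (9 in all), with 9 shared. Of the selective regions 52.6% were Tie2-Cre-selective, against 38.5% over all genes. Peaks per 10000 were higher in every Tie2-Cre library, at 13.0, 14.6 and 13.5 against 9.64, 5.55 and 8.87. Nrg1, the neuregulin that the endocardium sends to the myocardium, had 2 Tie2-Cre-selective intronic regions, with chr8:31884553-31884923 at folds of 7.34, 5.32 and 7.66 in the 3 libraries. Its receptor gene Erbb4, which cardiomyocytes express, had 2 Tnnt2-Cre-selective regions, with chr1:69116819-69117246 at folds of 9.19, 5.18 and 13.4. RNA of Nrg1 was 36.9 ± 2.67 CPM for EC, against 3.52 ± 0.519 for CM, and that of Erbb4 at 1.25 ± 0.412 and 66.3 ± 1.62, so ligand and receptor differed in opposite directions in both measures. Ece1, the endothelin-converting enzyme, had 2 Tie2-Cre-selective regions and 1 shared.

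2 endocardial genes ran the other way and were chosen for that after their values were seen. Cgnl1, a junction protein, and Tgm2, a transglutaminase, each had 2 Tnnt2-Cre-selective regions and no Tie2-Cre-selective one. Cgnl1 RNA was nevertheless EC-higher (1270 ± 7.53 CPM in EC, 349 ± 35.4 in CM), while Tgm2 was CM-higher with a log2 fold change of -1.92 (adjusted p = 2.85e-09, edgeR).

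Cushion mesenchyme genes had few selective regions, 3 of each class at 16 genes, beside 6 shared. The Tie2-Cre class was thus 50% of the selective regions, against 38.5% over all genes. Peaks per 10000 were 6.22, 14.6 and 6.17 in Tie2-Cre against 4.82, 5.55 and 5.26 in Tnnt2-Cre, without overlap, and the difference of means went from 3.80 to 0.986 without Tie2-Cre replicate 2. Postn, encoding the matrix protein periostin, had a Tie2-Cre-selective region about 50 kb from its start (chr3:54410996-54411631, folds 6.78, 5.59 and 8.85). Sox9, a factor of cushion and cartilage cells, had 1 at 2159 bp from its start. Vcan, encoding the matrix proteoglycan versican, had 2 Tnnt2-Cre-selective regions and no Tie2-Cre-selective one, although its RNA was EC-higher (1610 ± 1.57 against 921 ± 56.0 CPM). Of the 16 genes, 8 had no reproducible region, against 15712 of the 24140 genes placed.

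Signalling lists were mixed. Notch genes held 5 regions of the Tie2-Cre class and 6 of the Tnnt2-Cre class, and BMP and TGF-beta genes 10 and 13. The Tie2-Cre class thus made up 45.5% and 43.5% of the selective regions, against 38.5% over all genes. In both of these lists the peaks per 10000 overlapped between lineages. At Jag1, a Notch ligand, the Tie2-Cre-selective region chr2:137163750-137164188 was in all 3 libraries (folds 5.01, 6.27 and 5.16) and a Tnnt2-Cre-selective one lay in an intron. Jag1 RNA was 46.1 ± 3.27 CPM against 45.9 ± 6.52 (EC, CM). Bmpr1a and Bmpr2, receptors for bone morphogenetic proteins, had 2 Tie2-Cre-selective regions each. Bmp10, a ligand of trabecular myocardium, had 3 Tnnt2-Cre-selective regions and 1 Tie2-Cre-selective region, and its RNA was at 68.8 ± 8.62 CPM in CM and 1.28 ± 0.108 in EC. VEGF and angiopoietin genes had 8 and 5 selective regions, of which 61.5% were Tie2-Cre-selective. They had more peaks per 10000 in each Tie2-Cre library (12.4, 10.97 and 11.2) than in each Tnnt2-Cre library (7.01, 8.33 and 5.91). Flt1, a VEGF receptor, had 2 Tie2-Cre-selective regions and 1 shared. Genes of neuregulin signalling and trabeculation had 6 and 9 selective regions, of which 40% were Tie2-Cre-selective. Their peaks per 10000 numbered 10.2, 25.6 and 10.8 in Tie2-Cre against 9.20, 8.33 and 9.20 in Tnnt2-Cre. Those groups did not overlap, but the difference of means went from 6.62 to 1.58 per 10000 without Tie2-Cre replicate 2 and to 1.29 without both second libraries.

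**Figure D3:**
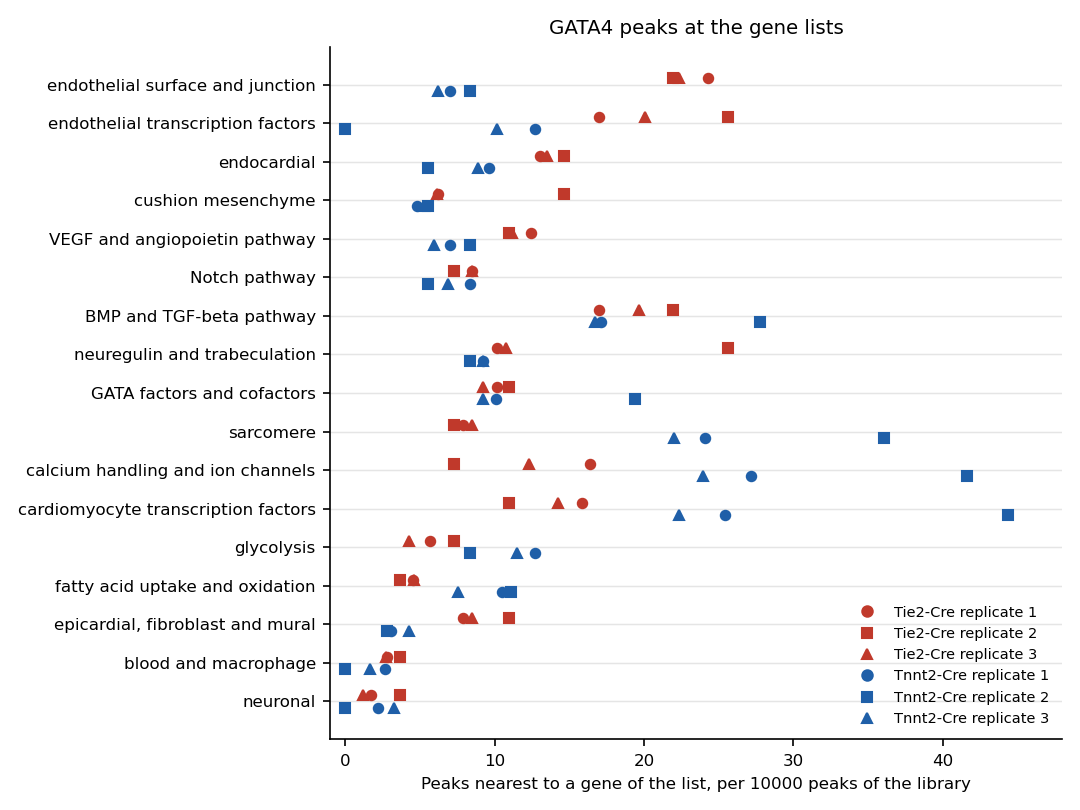
GATA4 peaks nearest to genes of 17 lists within 50 kb, per 10000 peaks of each library (Tie2-Cre in red, Tnnt2-Cre in blue, replicates by symbol). Endothelial surface genes reached 21.9 to 24.3 in Tie2-Cre and 6.24 to 8.33 in Tnnt2-Cre, and sarcomere genes 7.32 to 8.48 and 22.01 to 36.1; the short second libraries (squares) often lie farthest out.

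Sarcomere genes carried almost only Tnnt2-Cre-selective regions. Of 26 genes, 16 had such regions, 33 in all, against 2 Tie2-Cre-selective regions, so that 5.71% of the selective regions were Tie2-Cre-selective. Peaks per 10000 numbered 7.92, 7.32 and 8.48 in Tie2-Cre and 24.1, 36.1 and 22.01 in Tnnt2-Cre. All 26 genes were CM-higher, with a median log2 fold change of -6.63. Csrp3, the muscle LIM protein, had 5 Tnnt2-Cre-selective regions, of which 3 were in all 3 libraries, among them 1 at 340 bp from its start (chr7:48848391-48848753, folds 3.87, 4.06 and 5.15). Actn2, alpha-actinin of the Z disc, had 4, with chr13:12313569-12314204 in an intron at folds of 6.85, 5.58 and 7.39. Ttn, the giant spring protein titin, had 4, all in Tnnt2-Cre replicates 1 and 3 only and all in chromatin not open in EC. The region over the start of Tnni3, cardiac troponin I (chr7:4522088-4522726), had folds of 7.58 and 8.33 in those replicates. At Tnnt2 itself the promoter region was shared, with folds of 7.49 and 7.10 in Tie2-Cre replicates 1 and 3 and 11.1, 7.50 and 12.51 in Tnnt2-Cre, although its RNA was 81.3 ± 2.30 CPM for EC, against 5362 ± 683 for CM.

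The 2 Tie2-Cre-selective regions of the sarcomere list were at Ldb3 and Myh7. At Ldb3, a Z disc protein, an intronic region (chr14:34555657-34556144, folds 8.68 and 9.02 in Tie2-Cre replicates 1 and 3) stood beside 4 Tnnt2-Cre-selective ones. At Myh7, a slow myosin heavy chain, the classes lay next to each other. The Tie2-Cre-selective region chr14:55002328-55002969 had folds of 6.49, 6.47 and 6.32 in the 3 Tie2-Cre libraries, and 859 bp further on the Tnnt2-Cre-selective region chr14:55003829-55004958 had folds of 6.99, 6.78 and 7.85 in the 3 Tnnt2-Cre libraries. Each was absent from all 3 libraries of the other lineage, and both were open in EC. Myh7 RNA was 163 ± 8.18 CPM for EC, against 34137 ± 2161 for CM.

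Genes of calcium handling and ion channels and cardiomyocyte transcription factors also carried more Tnnt2-Cre-selective than Tie2-Cre-selective regions. The former had 34 Tnnt2-Cre-selective regions at 18 of 24 genes and 5 Tie2-Cre-selective ones, and the latter 30 at 12 of 20 genes and 10. Of the selective regions, 12.8% and 25% were thus Tie2-Cre-selective, against 5.71% at sarcomere genes and 38.5% over all genes. In RNA, 22 calcium handling genes were CM-higher and 0 EC-higher, while 14 of the factors were CM-higher and 6 EC-higher. Peaks per 10000 were 16.4, 7.32 and 12.3 in Tie2-Cre against 27.2, 41.6 and 24.0 in Tnnt2-Cre for calcium handling, and 15.8, 10.97 and 14.3 against 25.4, 44.4 and 22.3 for the factors. Neither pair of groups overlapped, but the short second libraries held the extremes. Without them the differences of means went from -18.9 to -11.2 and from -17.0 to -8.83 per 10000. Trdn, encoding triadin of the calcium release complex, had a Tnnt2-Cre-selective region in an intron (chr10:33122903-33123515) at folds of 11.4, 6.53 and 14.0 and another over its start. Kcnj5, Kcnq1 and Cacnb2, channel subunits, had 3 each.

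Nkx2-5, the homeobox factor of the cardiac lineage, had 2 Tnnt2-Cre-selective regions on either side at a like distance, 27518 and 27104 bp from its start. Both were in all 3 Tnnt2-Cre libraries, chr17:26813337-26814047 with folds of 7.88, 6.19 and 9.69 and chr17:26868669-26869240 with 9.82, 5.78 and 12.03, and neither was open in EC. Tbx5, a T-box factor, had 6 Tnnt2-Cre-selective regions, as many as any gene, and 1 Tie2-Cre-selective region among them. The strongest were chr5:119862497-119862884 in Tnnt2-Cre (folds 9.90 and 9.59 in replicates 1 and 3) and chr5:119875470-119876082 in Tie2-Cre (8.5 and 9.47). The latter began 214 bp after the end of a Tnnt2-Cre-selective region. Irx4, a factor of ventricular myocardium, had 4. The RNA of all 3 genes was CM-higher, Nkx2-5 by 58.4 ± 4.60 against 1.05 ± 0.0727 CPM and Tbx5 by 33.4 ± 4.78 against 15.2 ± 1.82. Mef2c, whose product acts in both lineages, had 1 Tie2-Cre-selective and 1 shared region and no Tnnt2-Cre-selective one, and its RNA was CM-higher (244 ± 8.11 against 105 ± 4.52 CPM).

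Metabolic genes carried Tnnt2-Cre-selective regions as well. Glycolysis genes had 16 at 9 of 20 genes and 1 Tie2-Cre-selective region, and genes of fatty acid uptake and oxidation had 9 at 6 of 20 genes and 1. The Tie2-Cre class thus made up 5.88% and 10% of the selective regions, against 38.5% over all genes. At equal list length the Tie2-Cre and Tnnt2-Cre classes held only 1 and 2 regions at glycolysis genes and 1 each at fatty acid genes. In RNA, 18 glycolysis genes were CM-higher and 2 EC-higher, and 17 and 1 of the fatty acid genes. Peaks per 10000 at glycolysis genes were 5.66, 7.32 and 4.24 in Tie2-Cre and 12.7, 8.33 and 11.5 in Tnnt2-Cre. At fatty acid genes they were 4.52, 3.66 and 4.63 against 10.5, 11.1 and 7.55. Gapdh of the glycolysis list had 2 Tnnt2-Cre-selective regions, although its RNA was EC-higher (288 ± 41.7 CPM in EC, 154 ± 24.3 in CM). Hk2, the hexokinase of muscle, had 6 Tnnt2-Cre-selective regions and 1 shared, all but 1 in its own introns and exons. Pgam2, the muscle phosphoglycerate mutase, had 1 over its start (chr11:5803399-5803933, folds 4.99 and 6.34). Cd36, a fatty acid transporter, had 3 Tnnt2-Cre-selective regions, of which the one in an intron (chr5:17880768-17881260, folds 13.2, 9.41 and 13.9) was among the strongest of its class, and 1 Tie2-Cre-selective region upstream (chr5:17904784-17905199, folds 9.01, 6.47 and 9.40). Cd36 RNA was at 126 ± 8.72 CPM in CM and 4.86 ± 0.851 in EC. Ppargc1a, a regulator of mitochondrial number, had 4 Tnnt2-Cre-selective and 3 shared regions.

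**Figure D4:**
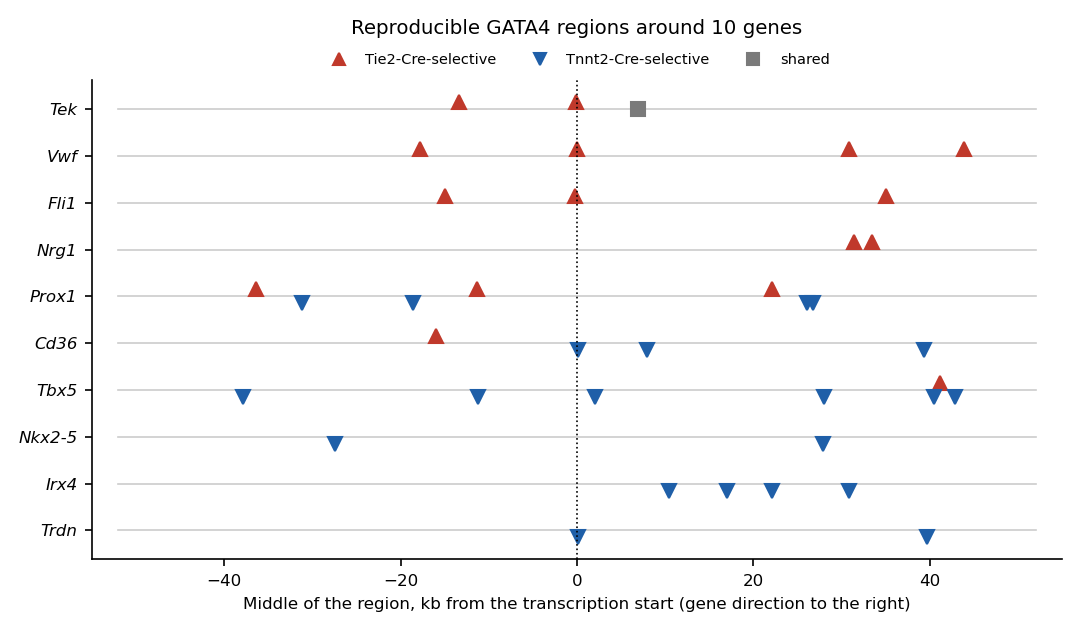
Reproducible GATA4 regions around the starts of 10 genes, by the distance of the region's middle from the transcription start in kb, with the gene running to the right (red, Tie2-Cre-selective; blue, Tnnt2-Cre-selective; grey, shared). Vwf shows 4 red marks, Tbx5 6 blue marks and 1 red, and Prox1 3 red and 4 blue marks side by side.

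The list of GATA factors and their cofactors had 9 Tnnt2-Cre-selective and 3 Tie2-Cre-selective regions, with 10 shared, although 9 of the 11 genes of this list were EC-higher in RNA. Peaks per 10000 were 10.2, 10.97 and 9.25 in Tie2-Cre and 10.1, 19.4 and 9.20 in Tnnt2-Cre, so the groups overlapped, and without Tnnt2-Cre replicate 2 the difference of means changed from -2.77 to 0.497. Most of the selective regions were at the cofactors. Zfpm1, the cofactor Friend of GATA, had 9 reproducible regions, 2 of each selective class and 5 shared, the most shared regions of any gene of this list. Zfpm2, its relative of the myocardium, had 4 regions, all Tnnt2-Cre-selective, of which chr15:40665813-40666327 was in all 3 libraries (folds 4.59, 5.12 and 3.90). RNA differed in opposite directions, with Zfpm1 higher in EC by 2.40 and Zfpm2 lower by 0.54 (log2 fold change -0.54). Gata3 and Gata5 had 1 Tnnt2-Cre-selective region each, while both were EC-higher in RNA, by 5.41 and 2.91. Tal1 and Lmo2, partners of GATA factors in blood and endothelium, had a shared region each, and the one of Tal1 lay 7 bp from its start (chr4:115056433-115057063) with folds of 6.80 and 6.67 in Tie2-Cre and 6.39 and 6.57 in Tnnt2-Cre replicates 1 and 3.

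Genes of other cell types were checked, since Tie2-Cre also marks blood cells and cushion cells. Of 18 blood and macrophage genes, 15 had no reproducible region, and there was 1 region of each selective class, at Runx1 (Tie2-Cre-selective, chr16:92801618-92801879) and Gfi1b (Tnnt2-Cre-selective). Peaks per 10000 were 2.83, 3.66 and 2.699 in Tie2-Cre and 2.63, 0 and 1.64 in Tnnt2-Cre. Of 20 neuronal genes 17 had no reproducible region. Over all genes, 15712 of the 24140 placed had no such region, so most genes of any kind lacked one. Genes of epicardium, fibroblasts and mural cells were different, with 10 Tie2-Cre-selective regions at 5 of 18 genes and 4 Tnnt2-Cre-selective ones at 3. The Tie2-Cre class was thus 71.4% of the selective regions, against 38.5% over all genes. Their peaks per 10000 were 7.92, 10.97 and 8.48 in Tie2-Cre and 3.07, 2.78 and 4.27 in Tnnt2-Cre. Col3a1, a fibrillar collagen, had 4 Tie2-Cre-selective regions, and Pdgfra, a receptor of mesenchymal cells, had 2, with chr5:75137799-75138239 at folds of 10.5 and 10.3 in Tie2-Cre replicates 1 and 3. RNA of both was EC-higher (Col3a1 at 1650 ± 44.1 against 312 ± 37.1 CPM, Pdgfra at 215 ± 3.54 against 40.5 ± 3.29). Over the list, 6 genes were EC-higher and 11 CM-higher. Which cells within the Tie2-Cre lineage gave these peaks was not tested, and in pooled tissue more cells of a type and more occupancy per cell cannot be told apart.

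Beyond the lists, the genes with the most Tie2-Cre-selective regions were 4933417E11Rik, Apod and Eml4 with 5 each, followed by 8 genes with 4, among them Col3a1, Spata13 and Vwf. Eml4, a microtubule-binding protein, was EC-higher by 1.06 on the log2 scale, 4933417E11Rik and Apod were not tested for RNA because of low counts, and Spata13, an exchange factor for small GTPases, was CM-higher (23.6 ± 1.56 CPM in EC, 44.6 ± 0.693 in CM). The most Tnnt2-Cre-selective regions were at Bcl11a, Hk2, Tbx5, Gmpr, Gm5105 and Hmcn1, with 6 each. Of these, Bcl11a, a zinc finger repressor, was CM-higher by a small margin (25.3 ± 5.07 against 16.9 ± 1.65 CPM, adjusted p = 0.00692, edgeR), which was lost without EC replicate 2 (adjusted p = 0.0596). Hmcn1, an extracellular matrix protein, also had 1 Tie2-Cre-selective and 1 shared region.

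Prox1 and Ncoa3 were among the genes with at least 3 regions of each selective class. Prox1, a homeobox factor of lymphatic endothelium and of cardiomyocytes, had 3 regions selective for Tie2-Cre and 4 for Tnnt2-Cre. Its region chr1:190181747-190182185 was in Tie2-Cre replicates 1 and 3 with folds of 11.7 and 12.2, and chr1:190201676-190202165 in Tnnt2-Cre replicates 1 and 3 with 7.88 and 7.66. Prox1 RNA was CM-higher (58.7 ± 13.1 against 16.4 ± 2.61 CPM). Ncoa3, a nuclear receptor coactivator, differed little in RNA (58.98 ± 2.61 CPM in EC, 71.5 ± 5.43 in CM). The call of Ncoa3 was lost without EC replicate 2 (adjusted p = 0.0728).

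Some regions of opposite class lay close together. Neighbouring reproducible regions on a chromosome were paired where the gap was at most 10 kb. Of these pairs, 614 joined a Tie2-Cre-selective and a Tnnt2-Cre-selective region, against 359 within the Tie2-Cre class and 659 within the Tnnt2-Cre class. A shared region was joined to a Tie2-Cre-selective one in 494 pairs and to a Tnnt2-Cre-selective one in 744, and 342 pairs lay within the shared class. The classes differ in size, and the number of opposite pairs that their sizes alone would give was not worked out. Of the 614, 62 had a gap of at most 1 kb and 26 of at most 500 bp. The pairs at Tbx5 and Myh7 described above are among them, as is a pair 201 bp apart nearest to Kdr, the VEGF receptor. At Per2, a clock gene, the gap was 2 bp, so that 2 adjoining peaks of 1 broader region could count as opposite classes.

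Among the strongest selective regions present in all libraries of their lineage, 3 show how the nearest gene can fail to match the class, and they were chosen for that after their values were seen. The Tie2-Cre-selective region chr8:56335194-56335883, with folds of 9.69, 9.87 and 11.9, lay 40642 bp from the start of Hpgd, a prostaglandin dehydrogenase, whose RNA was low and CM-higher (3.84 ± 1.84 CPM in EC, 9.52 ± 1.43 in CM, log2 fold change -1.28, edgeR adjusted p = 0.00091). One in an intron of Bre (chr5:31766617-31767448) had folds of 10.1, 8.78 and 12.7, and Bre RNA stood at 39.2 ± 2.28 and 34.8 ± 0.894 CPM, a difference that did not pass the test (edgeR adjusted p = 0.0885). The Tnnt2-Cre-selective region chr2:124662359-124662861, in an intron of Sema6d, a guidance molecule, had folds of 12.02, 9.27 and 13.8 and was closed in EC, while the gene with the nearest start, Slc24a5, was 405270 bp away and EC-higher by 3.75 on the log2 scale. Others among the strongest were nearest to genes that matched their class. Tie2-Cre-selective ones were nearest to St6gal1, Adgrg6 and Cdh11, with log2 fold changes of 2.69, 2.69 and 1.91. The starts of the latter 2 lay 61388 and 160310 bp away, beyond the 50 kb used elsewhere. Dleu7 also matched, and Hif1a, Cd36, Flrt3 and Gm20554, nearest to Tnnt2-Cre-selective regions, were CM-higher. Further Tnnt2-Cre-selective ones were nearest to Rtn1, Nav1 and Dad1, which were EC-higher by 5.19, 1.31 and 0.605. Mdm1 and Cpeb2, nearest to Tie2-Cre-selective ones, did not differ (edgeR adjusted p = 0.344 and 0.652).

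In 13 of the 689 regions present in all 6 libraries the fold was at least 15 in each library, with values from 15.0 to 33.5, and all 13 were open in both EC ATAC libraries. The strongest, in an intron of Chl1 (chr6:103648928-103649433), had folds of 31.6, 28.05 and 32.9 in Tie2-Cre and 29.7, 26.6 and 32.4 in Tnnt2-Cre. The greatest fold in any selective region was 22.2 for Tie2-Cre and 16.7 for Tnnt2-Cre, within the range of these 13. A run of 15 shared regions lay between 2999901 and 3038329 on chromosome 9, nearest to Mir101c, with 13 of them in all 6 libraries, while the gene with the next most had 5. A further 6 regions were on the mitochondrial DNA, 4 of them in all 6 libraries. RNA of Chl1 was 0 CPM in both EC libraries and 0.582 ± 0.184 in CM. Whether these regions mark GATA4 or sequence that every library recovers was not tested, as no control library was analysed here. They are few among the 6535 shared regions.

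The letters of the promoter windows differed between the classes. The RefSeq table holds 32817 distinct windows of 300 bases, 250 before and 50 after a start. A GATA motif, as spelled out above, was found in 29.8% of all windows, in 44.7% of the 266 with a Tie2-Cre-selective region, in 33.1% of the 474 with a Tnnt2-Cre-selective one and in 34.8% of the 1659 with a shared one. Base composition differed as well, with a median GC content of 53.3%, 59% and 59.7% in these classes and 52.7% in all windows. Among windows with at least 50% GC the shares were 35.0%, 27.8% and 32.7% against 18.4% in all. Windows that met a peak of no class were below all windows, at 22.6%, and close to them at this GC content, at 18.1%. Among windows under 50% GC the order was another. The shares were 65.1%, 56.2% and 50% in the Tie2-Cre, Tnnt2-Cre and shared classes, 58.8% in windows with a peak of no class and 47.4% in all.

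Other motifs separated the classes in other ways. The MEF2 motif, searched as CTAAAAATA, CTATTTATA, CTATAAATA and CTATTTTTA, was in 5.91% of the windows with a Tnnt2-Cre-selective region (28 of 474), in 0.376% of those with a Tie2-Cre-selective one (1 of 266), in 1.02% of shared ones and in 1.603% of all. The ETS motif CCGGAA was in 25.9%, 19.6% and 35.7% of Tie2-Cre-selective, Tnnt2-Cre-selective and shared windows and in 14.9% of all. Windows with a peak of no class had it in 30.8%, above both selective classes, and windows without a peak in 11.3%. Its shares were not split by GC content. The TEAD motif GGAATG was in 15.0%, 16.03% and 12.48% against 14.7%, and the E-box CAGCTG in 19.5%, 17.3% and 15.0% against 16.3%. All were searched on both strands, and matches of different motifs were allowed to overlap. These are counts of letters with no test. A match is not shown to be a binding site, and the distal regions, which are most of the selective ones, could not be read because no genome sequence was used here.

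GATA motifs were denser near the peak summits than farther away in every library. Where a summit fell in a promoter window, matches were counted by their distance from it. Within 25 bp there were 4.0, 3.80 and 2.92 matches per kb in Tie2-Cre replicates 1, 2 and 3 and 3.57, 4.62 and 3.05 in the Tnnt2-Cre replicates. At 100 to 200 bp there were 1.20, 1.62 and 0.944 and 1.098, 2.197 and 0.982, near the 1.32 per kb of all windows. In Tie2-Cre replicate 2 the density was higher at 25 to 50 bp, at 5.76 per kb, than within 25 bp, and in the other 5 libraries it was highest within 25 bp. The lineages overlapped at both distances. The second libraries rest on only 111 and 127 summits, against 1049 to 1938 in the others.

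**Figure D5:**
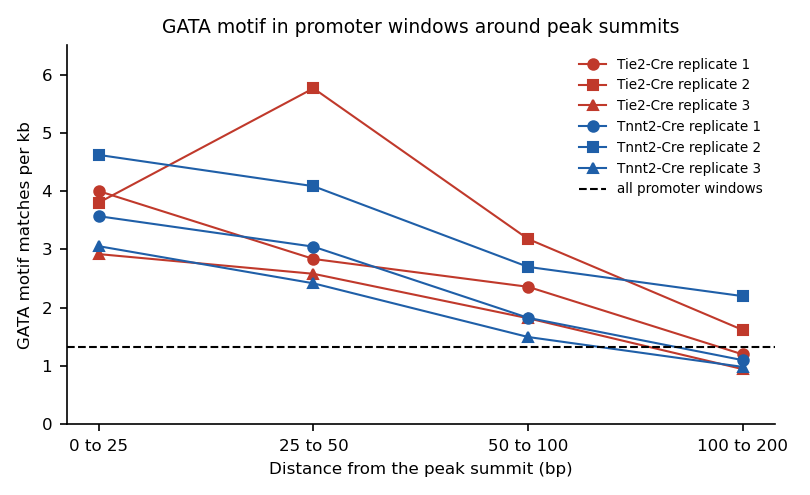
GATA motif matches per kb of promoter window by distance from the peak summit (bp), for each of the 6 libraries (Tie2-Cre in red, Tnnt2-Cre in blue) and, as the dashed line, over all windows. Within 25 bp all libraries lie at 2.92 or more, above the 1.32 of all windows, and the 2 lineages run together.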

How the data were processed

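GATA4 peak lists, EC ATAC peak lists and RNA counts were used as deposited. The authors' deposited peak files, 1 list per library, give each peak's position, a fold over background (a ratio), and −log10 p and −log10 q values. No label or header used here names a control library for the peak calling. The submitters' processing notes name MACS2 2.2.4, Bowtie 1.1.1, Bowtie2 2.2.9, STAR 2.7.3a and deepTools 3.3.1, without roles. The deposited counts per gene were made with featureCounts 1.6.3 with reads counted on the forward strand of mm10 genes, per the file headers. The 5 RNA libraries held 21682362 to 48393473 counts on genes. No label or header used here names the isolation method of the cardiomyocytes.

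Peaks sharing at least 1 bp were merged over the 6 GATA4 libraries. Of 24421 genes in the count table, 24140 were placed. Those left out were 144 on several chromosomes or strands and 137 with copies apart. Each region was assigned to 1 gene, that of the closest start, if it lay no more than 50 kb away. Means of 3 libraries were compared by an exact two-sided permutation test over the 20 splits. RNA was tested with edgeR 4.0.16 (quasi-likelihood, TMM, Benjamini-Hochberg over 14851 genes) in R 4.3.3, with DESeq2 1.42.0 as an alternative. Python 3.11.15, numpy 2.4.6, pandas 2.3.3 and matplotlib 3.10.9 were used for the rest, and the procedures were tested on simulated data. Promoter windows came from RefSeq, and 17049 symbols of the count table matched.

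The regions, the 19 gene lists (340 entries) and the comparison were chosen with earlier results of these data known. Genes named are the GATA factors and textbook targets with a region, up to 4 genes per list with the most regions of 1 selective class, the 6 genes with the most regions of each class, and the genes with at least 3 of both. One gene that this rule names is not reported here. Regions named by strength are from the 8 of each selective class and the 5 shared with the smallest mean rank, of which not all are described. Others were named after their values were seen. Alternatives changed the q threshold, list length, number of libraries, overlap, distance, RNA normalization and filter, and left out each library. The 10 textbook GATA4 target genes with a region carried 4 Tie2-Cre-selective, 10 Tnnt2-Cre-selective and 2 shared regions.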

Additional observations from a re-analysis of the deposited data

How the results depend on the processing

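The difference in open chromatin lay between 19.4 and 24.3 percentage points and that at EC-higher genes between 10.95 and 19.6 under every setting tried. The difference in promoter share changed sign, to 0.463 at equal list length and between -3.31 and 1.86 with 1 library left out. Class sizes moved most. Tie2-Cre-selective, Tnnt2-Cre-selective and shared regions numbered 1375, 1444 and 751 at equal list length and 798, 1156 and 689 when all 3 libraries were needed, and shared regions 3821 when peaks had to cover 0.5 of the region. With 1 library left out they ranged from 812 to 7337, 1167 to 11500 and 1482 to 6513. The low ends came without a deep library of the same lineage (for shared regions, of either), when the rule needs the short one, and the high ends of the selective classes without replicate 3 of the other lineage, when fewer lists can hold the region. EC-higher and CM-higher genes ranged from 5163 to 5437 and 5438 to 5904. Same-numbered libraries did not deviate together (r of 0.033, -0.269 and -0.194 for GATA4). Replicate 2 was nevertheless the shortest list in both lineages, with 2734 peaks in Tie2-Cre and 3603 in Tnnt2-Cre. Whether the numbers mark a shared batch was not tested. With the replicate block the sign-flip p was 0.25, 0.25 and 0.5, where 0.25 is the smallest possible, and 5261 and 5613 genes were called.

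Selective regions at lists, Tie2-Cre minus Tnnt2-Cre, changed sign at equal list length for Notch (1) and neuregulin (4) genes, and with all 3 libraries needed for Notch (1), VEGF (-1) and neuregulin (1) genes. With 1 library left out they ranged from -5 to 30 at endothelial surface, -11 to 15 at endothelial factor, -9 to 11 at endocardial, -8 to 8 at VEGF, -4 to 12 at epicardial, -12 to 3 at GATA, -9 to 6 at Notch, -15 to 10 at BMP, -9 to 8 at neuregulin, -36 to 3 at cardiomyocyte factor, -17 to 1 at glycolysis and -3 to 1 at neuronal genes. Peaks per 10000 changed sign for BMP genes (0.721 at a stricter q, 1.39 without the second libraries, -2.90 to 2.60 with 1 library left out), neuronal genes (-1.12, -1.31, and -0.568 to 1.07) and GATA genes (0.0778 without the second libraries, -4.62 to 0.497). The settings without both second libraries, and all of peaks per 10000, were chosen after seeing the data. Among RNA values of named genes, 881 kept their call, 16 lost and 5 gained it. Cpeb2 ranged from -0.294 to 0.119 with 1 library left out. Jag1, near 0, turned to -0.00499 with DESeq2 size factors, -0.00455 with DESeq2, -0.0342 without a filter, -0.101 with the block, and ranged from -0.102 to 0.0949 with 1 library left out. Apart from class sizes, the cause of these changes was not tested.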
